A study of Mus musculus with 4 samples.

Results

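The Hox genes of the 4 clusters were compared between mesenchymal stem cells (MSC) grown from mouse colon and from mouse bone marrow. Members were all probe sets that the platform annotation pairs with exactly 1 gene symbol of the form Hoxa, Hoxb, Hoxc or Hoxd and a number, chosen by name alone. That gave 48 probe sets of 45101 on the array, for 33 genes of 18193 that a probe set names alone, and for 33 of the 39 protein-coding genes of the clusters in RefSeq: 16 probe sets of 9 Hoxa genes, 11 of 9 Hoxb genes, 11 of 7 Hoxc genes and 10 of 8 Hoxd genes. The remaining genes of the clusters are not analysed here. A further 3 probe sets carried the symbols of several Hox genes and were not members.

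MSC are stromal cells that attach to plastic and are known as precursors of bone, cartilage and fat cells. Each of the 4 arrays held RNA of 1 cultured line from C57BL/6 mice, with 2 lines from bone marrow and 2 from flushed colon. The tissue was dissociated with collagenase type I in both cases, and the cells of both tissues were kept in low glucose DMEM with HEPES and 10% FBS and lysed between passages 5 and 10. No line carries a transgene or received an agent, and the labels give neither age nor the animals behind each line, so a p-value here measures only the spread between these lines. In such bulk RNA, fewer cells that express a gene and less RNA per cell cannot be told apart.

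Hox proteins are homeodomain transcription factors that give cells along the body axis their position. The genes lie in 4 clusters, on chromosomes 6 (Hoxa), 11 (Hoxb), 15 (Hoxc) and 2 (Hoxd), and genes of the same paralog number in different clusters descend from a common ancestor. Low numbers are used in the head and neck region of the embryo and high numbers toward the tail, the limb ends and the hindgut, and cultured fibroblasts and stromal cells often keep the Hox pattern of the site they came from. Hox proteins bind DNA together with TALE homeodomain proteins of the Pbx and Meis families. Retinoic acid is known to induce genes at the low-numbered end, while Polycomb proteins keep unused Hox genes silent.

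The 250 bases before the gene start are shown for 4 members that stand for some of the patterns described below. Hoxb4 and Hoxd10 had higher values in both colonic lines, Hoxc4 had lower ones, and Hoxd8 had values that differ between the lines of 1 tissue. Of the windows drawn up, the 4 shown are those that hold a motif match, and the Hoxa cluster is not among them. They come from RefSeq on build GRCm38.p6 and run 5′ to 3′ on the strand of the gene, with capitals marking matches, on either strand, to the 6 motifs spelled out after them.
Hoxb4, chr11:96318017-96318266, plus strand: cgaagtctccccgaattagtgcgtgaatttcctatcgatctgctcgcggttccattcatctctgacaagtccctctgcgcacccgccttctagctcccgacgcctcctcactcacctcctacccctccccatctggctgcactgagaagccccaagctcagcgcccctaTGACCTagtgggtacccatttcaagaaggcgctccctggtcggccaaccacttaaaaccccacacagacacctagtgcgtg
Hoxd10, chr2:74691641-74691890, plus strand: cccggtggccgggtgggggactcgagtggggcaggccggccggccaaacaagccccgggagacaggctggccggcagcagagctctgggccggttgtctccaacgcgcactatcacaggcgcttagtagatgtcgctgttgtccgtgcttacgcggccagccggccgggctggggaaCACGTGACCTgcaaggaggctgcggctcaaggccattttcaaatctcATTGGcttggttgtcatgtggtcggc
Hoxc4, chr15:103034145-103034394, plus strand: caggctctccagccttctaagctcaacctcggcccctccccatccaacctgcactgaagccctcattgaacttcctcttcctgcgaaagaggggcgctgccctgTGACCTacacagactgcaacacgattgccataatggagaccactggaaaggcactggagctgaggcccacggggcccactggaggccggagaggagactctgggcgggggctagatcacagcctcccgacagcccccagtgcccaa
Hoxd8, chr2:74704365-74704614, plus strand: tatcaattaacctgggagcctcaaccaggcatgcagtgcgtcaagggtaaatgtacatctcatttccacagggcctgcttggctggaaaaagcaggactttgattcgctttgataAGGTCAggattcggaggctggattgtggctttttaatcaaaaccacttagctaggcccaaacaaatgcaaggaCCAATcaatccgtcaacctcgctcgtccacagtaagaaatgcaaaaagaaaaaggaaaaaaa
The Hoxb4, Hoxd10, Hoxc4 and Hoxd8 windows each hold AGGTCA, the core site of retinoid and other nuclear receptors, which stands in 6 of the 24 Hox promoters in the table and in 14.0% of 32851 promoters of the same length. In Hoxd10 it overlaps a CACGTG, the E-box of basic helix-loop-helix proteins, which 4 of 24 Hox promoters and 6.02% of all promoters hold. CCAAT, the NF-Y box, stands in Hoxd10 and Hoxd8 and in 14 of 24 Hox promoters (58.3%, against 33.8% of all). The TATA box TATAAA was found in 4 of the 24 and in 12.4% of all. The joint Hox and Pbx motif TGATNNAT was found in 4 and in 7.68% of all, and the Meis motif TGACAG in 2 and in 15.9% of all. A match is a stretch of letters and no evidence of binding, and the same AGGTCA stands in Hoxb4, with higher colonic values, and in Hoxc4, with lower ones. The windows of Hoxd9, Hoxa9 and Hoxa11, which were also drawn up and are not shown, hold 0 matches to the 6 motifs. The 24 promoters belong to 22 Hox genes, and the median number of CG dinucleotides in them was 12.5, against 6 over all promoters.

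The Hox probe sets separated by cluster rather than as a family. Of Hoxb, 9 of 11 probe sets had higher values in both colonic lines, and of Hoxc 7 of 11 had lower ones. Of Hoxd, 6 of 10 were higher in both colonic lines, with wide gaps between lines of 1 tissue, and of Hoxa 9 of 16 overlapped between the tissues. Of all 45037 probe sets tested, 16.9% were higher in both colonic lines, 15.8% were lower and 30316 overlapped, so the overlap was not particular to Hoxa. Differences are given as colonic minus bone marrow on the scale log2(intensity + 13.6), on which 1 is 2-fold for bright probe sets and less than the true ratio is read for dim ones. The median difference was -0.06 over the 16 Hoxa, 2.35 over the 11 Hoxb, -1.31 over the 11 Hoxc and 1.83 over the 10 Hoxd probe sets, beside 5e-04 over all 45037 probe sets tested. Over all 48 the median was 0.08, with 27 differences above and 21 below 0.

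**Figure D1:**
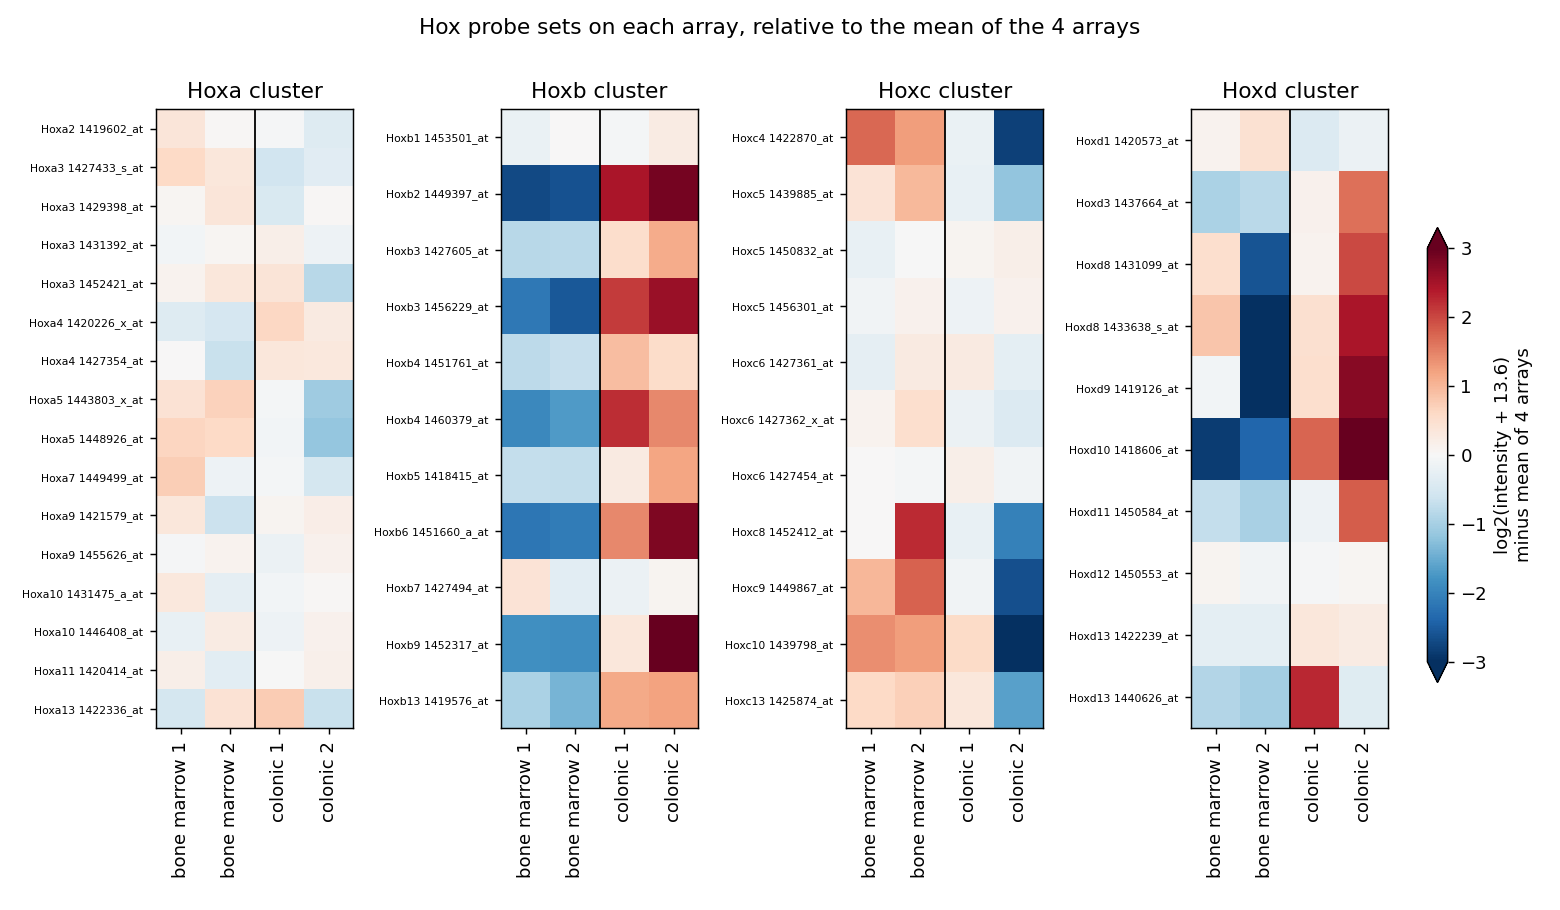
Each row is 1 Hox probe set and each column 1 array, and the colour is log2(intensity + 13.6) minus the mean of that probe set over the 4 arrays, from -3 (blue) to 3 (red). The Hoxb rows are blue in both bone marrow lines and red in both colonic lines except for Hoxb1 and Hoxb7, the Hoxc4, Hoxc8, Hoxc9, Hoxc10 and Hoxc13 rows are bluest in colonic replicate 2, and the Hoxa rows are the palest of the 4 clusters.

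None of the 48 passed limma with Benjamini-Hochberg adjustment over all 45037 probe sets at 0.05, and neither did any other probe set (0% called). The smallest adjusted p, 0.0892, was that of Hoxb2. Below an unadjusted limma p of 0.05 lay 13 Hox probe sets with higher colonic values (27.1%, against 2.85% of all probe sets) and 7 with lower ones (14.6%, against 2.55%). With 2 lines against 2 an exact permutation test cannot go below p = 0.333, so the lines were also compared by the distance between their closest arrays. Here and below, 2-fold and 4-fold apart mean a gap of 1 or 2 on the log2(intensity + 13.6) scale, which is less than the ratio of the intensities for dim probe sets. In 7 Hox probe sets (14.6%) the lower colonic line lay at least 4-fold above the higher bone marrow line, against 0.264% of all probe sets, and in 0 Hox probe sets was it at least 4-fold the other way, against 0.153%. At 2-fold the counts were 9 higher (18.8%, against 0.802% of all) and 2 lower (4.17%, against 0.524%). Without overlap at any distance were 18 higher (37.5%, against 16.9%) and 13 lower (27.1%, against 15.8%), and 17 overlapped. Of the 48, 40 had a mean above 33.3, the 40th percentile of all probe set means, which is called the low range below. In 8 probe sets no array reached that level.

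**Figure D2:**
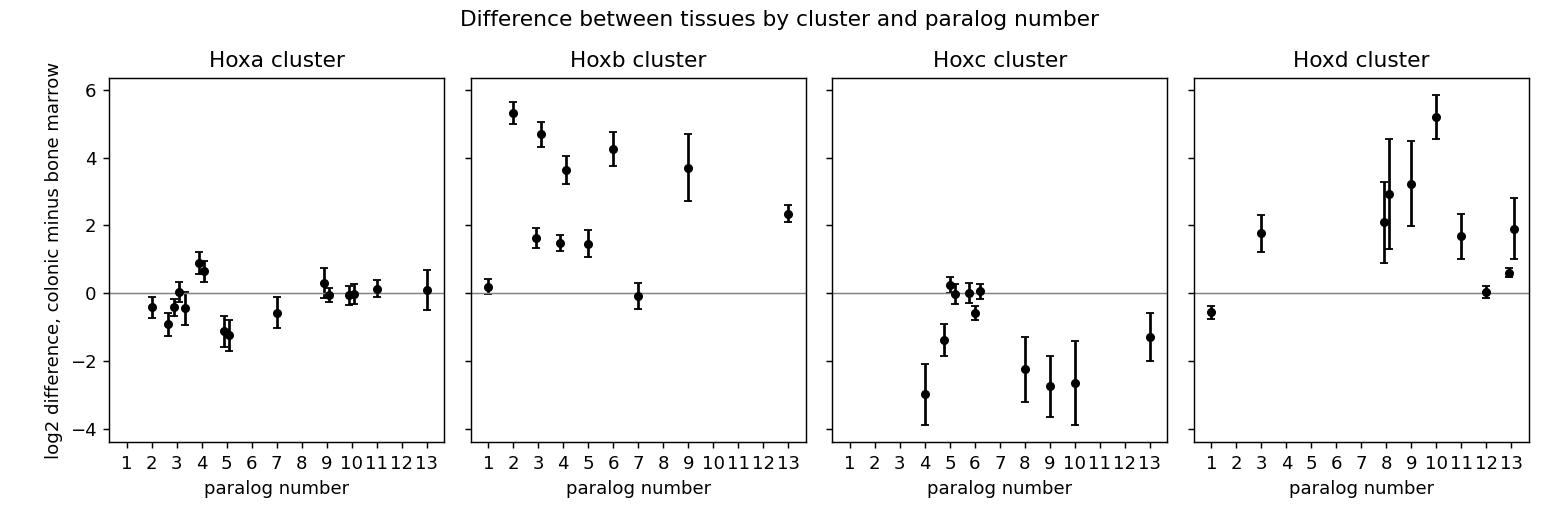
Points are log2 differences, colonic minus bone marrow, of the 48 probe sets against the paralog number of their gene, with 1 panel per cluster, and bars are the standard errors of limma. Hoxb2 at 5.33 and Hoxd10 at 5.22 are the highest points with this pseudocount (3.75 and 4.34 with the table median), Hoxc4 at -2.99 is the lowest, and Hoxa points lie between -1.25 and 0.89.

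In the Hoxb cluster 8 of 11 probe sets lay in the low range in both bone marrow lines, and of these Hoxb1 alone did so in both colonic lines. Hoxb2, which patterns the hindbrain, had intensities of 4.87 and 6.02 in the bone marrow lines and 647 and 873 in the colonic lines (5.45 ± 0.813 and 760 ± 159, SD, n = 2). Its log2 difference was 5.33 ± 0.33 (SE), and both lines of a tissue lay close together. Hoxb3, a gene of hindbrain and pharyngeal arch patterning, had 20.0 and 11.7 in the marrow lines against 622 and 883 in the colonic lines on probe set 1456229_at, a difference of 4.69 ± 0.37 (SE, limma adjusted p = 0.108). Its other probe set, 1427605_at, had 15.9 and 16.4 against 61.9 and 100.01, a smaller difference of 1.64 ± 0.30 (SE) with the same direction. Hoxb4, known for expanding blood stem cells when overexpressed, had 59.8 and 71.9 in the marrow lines against 1282 and 740 in the colonic lines on probe set 1460379_at, a difference of 3.64 ± 0.41 (SE, limma adjusted p = 0.201). On probe set 1451761_at it had 10.5 and 11.9 against 65.3 and 46.9, a difference of 1.48 ± 0.24 (SE). For both Hoxb3 and Hoxb4 the probe sets thus agreed in direction and not in size, and in each the tissues did not overlap.

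The middle and posterior Hoxb genes followed. Hoxb5, a regulator of shoulder position and of enteric neuron development, had 34.0 and 33.5 in the marrow lines against 80.6 and 165 in the colonic lines, with a gap of 0.98 between the closest arrays on the log2(intensity + 13.6) scale. Hoxb6, active in lateral plate mesoderm, had 4.04 and 4.92 in the marrow lines against 201 and 535 in the colonic lines, a log2 difference of 4.25 ± 0.51 (SE, limma adjusted p = 0.218). Hoxb9, a gene of the thoracic level, had 5.16 and 4.96 in the marrow lines against 71.6 and 686 in the colonic lines, so that its difference of 3.71 ± 1.00 (SE) was large and the colonic lines stood far apart. Hoxb13, a gene of the tail end, the prostate and the rectum, had 6.60 and 1.23 in the marrow lines against 72.3 and 76.9 in the colonic lines, a difference of 2.35 ± 0.25 (SE, limma adjusted p = 0.172). In Hoxb13 the colonic lines were nearly equal, unlike in Hoxb9. Hoxb7, known from kidney duct formation, did not follow its neighbours: it had 157 and 90.7 in the marrow lines against 101 and 122 in the colonic lines. Hoxb1, a gene of the hindbrain, stayed in the low range, between 14.7 and 25.1. The bone marrow values of most of these genes lay in the low range, so the size of a difference depended on the pseudocount. With a pseudocount of 1 and of the table median, Hoxb2 had 6.87 and 3.75, Hoxb6 5.91 and 2.72, Hoxb9 5.20 and 2.36, and Hoxb13 4.20 and 1.15. Hoxb3 1427605_at had 2.21 and 0.92 and Hoxb4 1451761_at 2.21 and 0.75. In all, 9 of 11 Hoxb probe sets were without overlap toward colon (16.9% of all probe sets) and 0 toward bone marrow (15.8%). Of the 9, 8 were at least 2-fold apart (0.802% of all) and 6 at least 4-fold (0.264%).

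**Figure D3:**
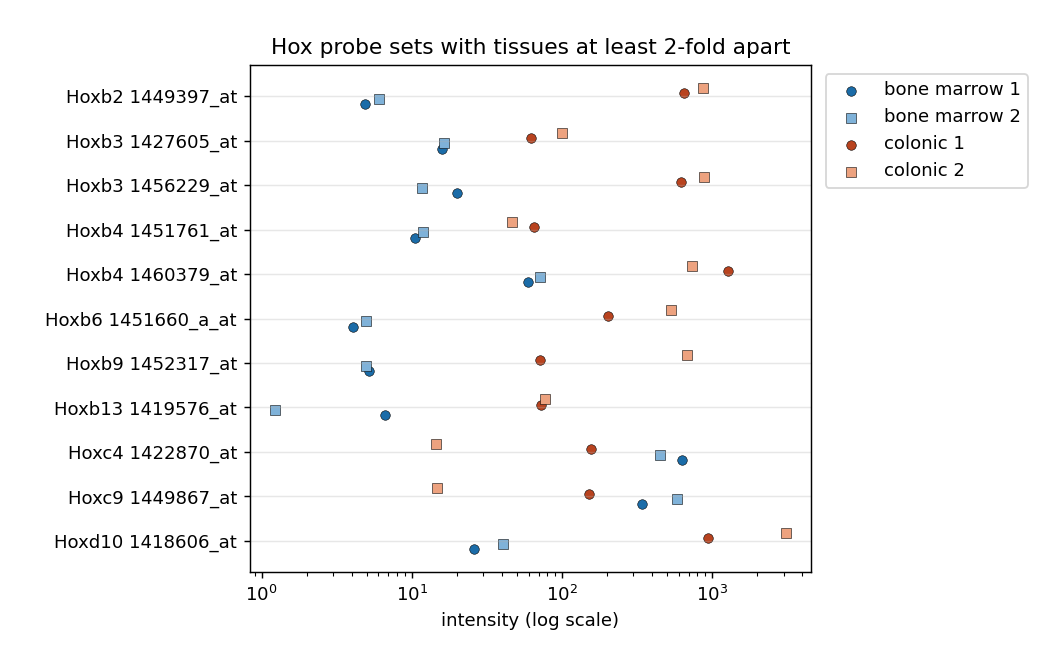
Points are the intensities, on a log scale, of the 11 Hox probe sets whose closest arrays of the tissues lay at least 2-fold apart, with blue for bone marrow and orange for colonic lines, circles for replicate 1 and squares for replicate 2. In 9 probe sets, 8 of them of Hoxb, the colonic points lie to the right, and in Hoxc4 and Hoxc9 to the left; values of different probe sets are not comparable as amounts.

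In the Hoxd cluster 6 of 10 probe sets lay without overlap toward colon (16.9% of all probe sets) and 1 toward bone marrow (15.8%). Hoxd10, which acts in hindlimb and lumbar patterning, had 25.9 and 40.8 in the marrow lines against 941 and 3098 in the colonic lines, a log2 difference of 5.22 ± 0.65 (SE, limma adjusted p = 0.231). On the log2(intensity + 13.6) scale it was the only Hoxd probe set at least 2-fold apart between the closest arrays; with a pseudocount of 1, Hoxd13 1422239_at was also at least 4-fold apart. Hoxd9, its neighbour on the chromosome, had 261 and 19.1 in the marrow lines against 395 and 1909 in the colonic lines. Bone marrow replicate 1 thus came close to colonic replicate 1, and the difference of 3.22 ± 1.26 (SE) was 1.69 without bone marrow replicate 2 and 4.76 without replicate 1.

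Hoxd8, the next gene, gave the same order of lines in both probe sets. On 1433638_s_at it had 819 and 20.6 in the marrow lines against 639 and 2518 in the colonic lines, and on 1431099_at 872 and 90.9 against 662 and 2458. Bone marrow replicate 1 lay above colonic replicate 1 in both, so the tissues overlapped. Without bone marrow replicate 1 the log2 differences of Hoxd8 were 5.23 and 3.63, and these probe sets and that of Hoxd9 then lay at least 4-fold apart. The share of all probe sets at least 4-fold higher in that setting was 0.904%, against 0.264% with all lines. Hoxd10 did not share that split of the bone marrow lines. Single markers of cell types did: the smooth muscle gene Cnn1 had 8623 and 33.0 in the marrow lines against 11529 and 8477 in the colonic lines, the macrophage gene Lyz2 1589 and 31.7 against 150 and 590, and the MSC surface marker Mcam 328 and 48.7 against 1717 and 1704. These were the only probe sets at least 4-fold lower in bone marrow replicate 2 among 10 of smooth muscle, 14 of macrophage and 26 of MSC surface markers. Of the 11 enteric neuron and glia probe sets 1 was too, and of all probe sets 1.23%. At any distance, bone marrow replicate 2 was the lower line in 10 of 10 smooth muscle, 11 of 14 macrophage and 17 of 26 MSC surface probe sets. Of all 45037 it was the lower line in 22868. The part of these cell types in the Hoxd values was not tested.

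Hoxd3, a gene of the first vertebrae, had 11.8 and 14.2 in the marrow lines against 39.5 and 140 in the colonic lines, and Hoxd11, a forearm gene, 13.6 and 9.22 against 26.5 and 144. In both, colonic replicate 2 was the high line. Hoxd13, which shapes the digits and the end of the gut, went the other way between the colonic lines: it had 41.2 and 36.6 in bone marrow, 476 in colonic replicate 1 and 65.4 in colonic replicate 2 on probe set 1440626_at. On 1422239_at Hoxd13 was at 1.00 and 1.03 in the marrow lines against 9.26 and 7.89 in the colonic lines, all in the low range. Hoxd12, between Hoxd11 and Hoxd13 on the chromosome, stayed between 8.34 and 11.4, and Hoxd1 between 3.60 and 17.9, the latter lower in colon without leaving the low range.

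The Hoxc cluster had the opposite direction, with 7 of 11 probe sets without overlap toward bone marrow and 1 toward colon. The shares over all probe sets were 15.8% and 16.9%. Hoxc4, a gene of the neck level, had 634 and 452 in the marrow lines against 156 and 14.4 in the colonic lines, a log2 difference of -2.99 ± 0.90 (SE, limma adjusted p = 0.845). Hoxc9, a thoracic gene, had 340 and 586 in the marrow lines against 151 and 14.7 in the colonic lines, a difference of -2.75 ± 0.90 (SE, limma adjusted p = 0.864). In both genes the colonic lines differed from each other by more than colonic replicate 1 did from bone marrow. Hoxc10, which acts in the hindlimb and lumbar region, had 3280 and 2974 in bone marrow, 1841 in colonic replicate 1 and 118 in colonic replicate 2, a difference of -2.66 ± 1.24 (SE). Hoxc13, known from hair and nail formation, had 530 and 580 in the marrow lines against 441 and 103 in the colonic lines. Hoxc8, a gene of the chest level, had 83.1 and 440 in the marrow lines against 69.0 and 9.85 in the colonic lines, and was the one Hoxc probe set in which the bone marrow lines were at least 4-fold apart.

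The Hoxc difference was larger in colonic replicate 2 than in replicate 1. Without colonic replicate 1, 5 Hoxc probe sets, those of Hoxc4, Hoxc8, Hoxc9, Hoxc10 and Hoxc13, were at least 4-fold lower in colon, where 0 were with all lines (0.524% of all probe sets passed in that setting). Without colonic replicate 2 the median Hoxc difference of -1.31 was -0.48. Without bone marrow replicate 1, Hoxc8 was the 1 Hox probe set at least 4-fold lower (0.355% of all, against 0.153% with all lines). The remaining Hoxc probe sets moved less: Hoxc5 had 187 and 280 in the marrow lines against 115 and 52.7 in the colonic lines on 1439885_at, but lay between 28.2 and 41.6 on 1450832_at and between 63.0 and 79.9 on 1456301_at. The 3 probe sets of Hoxc6, a gene of the neck and chest boundary, stayed in the low range, between 2.18 and 28.6.

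Among 12 intestinal epithelial markers, the keratin genes Krt19 and Krt8 and the gene Lgr5 each had a probe set with the order of tissues and colonic lines of most Hoxc genes. The 20 probe sets of the list had a median difference of -0.04, and 0 passed limma, as on the whole array. Between the tissues 13 overlapped, beside 30316 of all 45037. At least 2-fold apart were 2 toward bone marrow, against 0.524% of all probe sets, and 0 toward colon, against 0.802%. Colonic replicate 2 was below replicate 1 in 13 of the 20 and above it in 6, beside 21682 and 23011 of all 45037. The summed level of the list was 6672 and 5541 in the marrow lines against 3244 and 383 in the colonic lines, of which Krt19 made up 6223, 5083, 1890 and 105, and 6, 6, 6 and 2 of the 12 genes lay above the low range. Epcam, Vil1, Muc2, Cdx1 and Cdx2 lay between 1.00 and 28.8 on every array and probe set. The brightest probe sets of the others reached higher values: Krt20 at 889 in colonic replicate 1 and at most 29.4 elsewhere, Cldn3 between 87.4 and 157, Krt18 between 28.3 and 125, Cdh1 between 30.0 and 44.8, Krt8 between 27.5 and 44.7, and Lgr5 at 124 and 73.1 against 12.9 and 9.30. The part of these cells in the Hoxc values was not tested.

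In the Hoxa cluster 0 of 16 probe sets were at least 2-fold apart in either direction, 9 overlapped, 5 lay without overlap toward bone marrow and 2 toward colon. Of all 45037 probe sets, 0.802% were at least 2-fold apart toward colon and 0.524% toward bone marrow, and 30316 overlapped. Without overlap were 15.8% toward bone marrow and 16.9% toward colon. The posterior genes gave clear signals in every line: Hoxa9, a gene of the blood stem cell and limb programmes, had 2836 and 3130 in the marrow lines against 2567 and 3198 in the colonic lines on 1455626_at, a log2 difference of -0.06 ± 0.20 (SE). Hoxa10, which acts in lumbar and uterine patterning, had 2963 and 1964 against 2212 and 2400, and Hoxa11, a gene of the forearm, the lower leg and the uterus, 2253 and 1597 against 1979 and 2199. In each the lines of 1 tissue spanned those of the other. The weaker probe sets of Hoxa9 (64.2 to 141) and Hoxa10 (38.5 to 58.6) overlapped as well. Hoxa13, active in digits and hindgut, ranged from 21.4 to 81.3, highest in colonic replicate 1 and lowest in colonic replicate 2.

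The lower-numbered Hoxa genes held the largest differences of the cluster. Hoxa5, needed for lung and airway formation, had 1004 and 960 in the marrow lines against 600 and 274 in the colonic lines on 1448926_at, a log2 difference of -1.25 ± 0.45 (SE, limma adjusted p = 0.903), and its probe set 1443803_x_at had 282 and 343 against 196 and 91.6. Hoxa3, a thymus and parathyroid gene, had 404 and 337 against 174 and 205 on 1427433_s_at, while its other 3 probe sets differed by between -0.45 and 0.03. Hoxa4, a gene of the neck vertebrae, had the opposite direction, with 106 and 94.6 in the marrow lines against 223 and 174 in the colonic lines on 1420226_x_at and 33.2 and 15.4 against 44.8 and 43.5 on 1427354_at. Probe sets ending in _x_at and _s_at can bind transcripts of related genes, which makes the values of these Hoxa3, Hoxa4 and Hoxa5 probe sets, of Hoxd8 1433638_s_at and of Hoxc6 1427362_x_at less certain. Hoxa7 ranged from 162 to 408 and Hoxa2, a hindbrain and middle ear gene, from 48.0 to 90.1.

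Set side by side by paralog number, genes of common descent had unlike differences in some groups and like ones in others. In group 4 the log2 differences were 0.89 and 0.65 for the Hoxa4 probe sets, 3.64 and 1.48 for Hoxb4 and -2.99 for Hoxc4. Group 9 had -0.06 and 0.29 for Hoxa9, 3.71 for Hoxb9, -2.75 for Hoxc9 and 3.22 for Hoxd9. Group 10 had -0.07 and -0.02 for Hoxa10, -2.66 for Hoxc10 and 5.22 for Hoxd10. These 3 groups, chosen after their values were seen, each held a Hoxc gene below 0 and a Hoxb or Hoxd gene above 1. So did group 8, with -2.25 for Hoxc8 and 2.09 and 2.93 for Hoxd8, which overlapped between the tissues. Groups 5, 6 and 13 did so on at least 1 probe set of each gene, in the values that follow. Groups 1, 2, 3, 7, 11 and 12 have no measured Hoxc gene and so could not. Group 1 had 0.19 for Hoxb1 and -0.57 for Hoxd1, and group 7 -0.58 for Hoxa7 and -0.09 for Hoxb7. Group 2 had -0.41 for Hoxa2 and 5.33 for Hoxb2. Group 3 had between -0.92 and 0.03 for Hoxa3, 4.69 and 1.64 for Hoxb3 and 1.76 for Hoxd3. Group 11 had 0.14 for Hoxa11 and 1.67 for Hoxd11, and group 12 had 0.03 for Hoxd12. In group 5, Hoxa5 (-1.25 and -1.13) lay beside Hoxc5 (-1.39, 0.25 and -0.02) and Hoxb5 (1.45). In group 6, Hoxb6 had 4.25 and Hoxc6 between -0.59 and 0.06. In group 13 the values were 0.10 for Hoxa13, 2.35 for Hoxb13, -1.31 for Hoxc13 and 0.60 and 1.91 for Hoxd13. By position along the axis the medians were 0.42 over the 16 probe sets of paralogs 1 to 4, -0.02 over the 15 of paralogs 5 to 8 and 0.14 over the 17 of paralogs 9 to 13.

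The lines of 1 tissue also differed from each other in Hox genes. Between the colonic lines, 17 of 48 Hox probe sets (35.4%) were at least 2-fold apart, against 9.33% of all probe sets, and between the bone marrow lines 4 (8.33%), against 6.80%. The median distance between colonic lines was 0.49 over the Hox probe sets and 0.30 over all on the log2 scale, and between bone marrow lines 0.26 and 0.28. By cluster, the median of colonic replicate 2 minus replicate 1 was -0.18 for Hoxa, 0.42 for Hoxb, -0.95 for Hoxc and 1.62 for Hoxd. At least 4-fold higher in colonic replicate 2 were 2 probe sets (4.17%, against 0.553% of all), Hoxb9 and Hoxd9, and at least 4-fold lower were 4 (8.33%, against 1.45%), Hoxc4, Hoxc9, Hoxc10 and Hoxd13. Of the bone marrow lines, replicate 2 was at least 4-fold lower in 3 probe sets (6.25%, against 1.23% of all), those of Hoxd8 and Hoxd9, and at least 4-fold higher in 1 (2.08%, against 0.417%), Hoxc8.

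**Figure D4:**
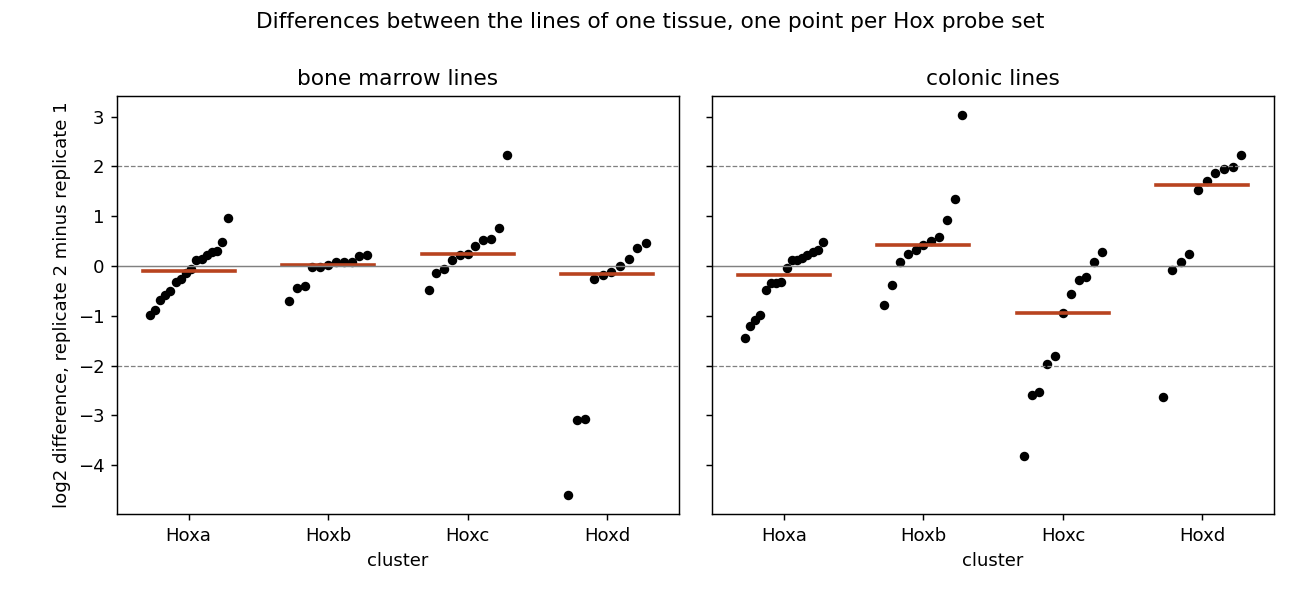
Each point is the log2 difference between replicate 2 and replicate 1 of 1 Hox probe set, sorted within its cluster, for the bone marrow lines on the left and the colonic lines on the right. Orange bars are medians and dashed lines mark 4-fold; the colonic medians are -0.95 for Hoxc and 1.62 for Hoxd, and the lowest bone marrow points are the Hoxd8 and Hoxd9 probe sets.

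Antisense and embedded transcripts of the clusters had 7 probe sets of 5 genes, of which 0 passed limma and 1 lay at least 2-fold apart, toward colon (against 0.802% of all probe sets). That was Hoxb5os, a transcript antisense to Hoxb5, with 48.7 and 17.2 in the marrow lines against 434 and 138 in the colonic lines (log2 difference 2.57 ± 0.66, SE, limma adjusted p = 0.783). Unlike most Hoxb genes it was higher in colonic replicate 1 than in replicate 2. Hoxa11os, antisense to Hoxa11, had 931 and 849 against 718 and 755 on its bright probe set. That was a small difference of -0.27 without overlap, while Hoxa11 itself had 0.14 and overlapped. Its dim probe set had 2.93 and 3.01 against 6.96 and 8.73, all in the low range. Hoxd3os1 had 4.07 and 3.46 against 10.6 and 52.0, with the same high line as Hoxd3, and the homeobox gene Evx1 beside Hoxa13 had 36.8 and 44.3 against 73.9 and 58.3. Whether the probes tell the strands apart was not tested. Genes that flank the clusters had 30 probe sets with a median of -0.09 and 0 past limma, as on the whole array. At least 2-fold apart were 0, against 0.802% of all probe sets toward colon and 0.524% toward bone marrow, so that count does not set the flanking genes apart. The lowest p among them belonged to Lnpk (0.53), Mtx2 (0.42), Atp5g1 (-0.63) and Cbx5 (-0.50), with the log2 differences given. Those of Lnpk and Atp5g1 came from probe sets with a mean in the low range. On their brighter probe sets Lnpk had 0.05 and -0.20 and Atp5g1 -0.07.

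TALE proteins, the DNA-binding partners of Hox proteins, had 20 probe sets of 8 genes, with 0 past limma. At least 2-fold apart were 4 toward colon, against 0.802% of all probe sets, and 0 toward bone marrow, against 0.524%. The 4 were of Meis1 and Meis2 only. The median difference of the 20 was 0.19. Meis2 had 889 and 713 in the marrow lines against 3320 and 4400 in the colonic lines on its clearest probe set, a log2 difference of 2.24 ± 0.27 (SE, limma adjusted p = 0.219), and 3 of its 4 probe sets were at least 2-fold apart. Meis1 had 528 and 536 against 1793 and 2012, a difference of 1.81 ± 0.26 (SE, limma adjusted p = 0.314), while its other probe sets had 0.73 and -0.03. On these probe sets the lines of a tissue lay close together, while another probe set of Meis2 had 107 and 420 in the colonic lines and another of Meis1 29.9 and 88.2. Meis3 (0.60) and Pbx2 (-0.51) followed in the order of p, and Pbx3 had 0.25 and 0.14.

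Inputs to Hox genes had 18 probe sets of 14 genes, with 0 past limma and a median of 9e-04. At least 2-fold apart were 3 toward colon, against 0.802% of all probe sets, and 1 toward bone marrow, against 0.524%. Aldh1a3, an enzyme that makes retinoic acid, had 26.8 and 12.8 in the marrow lines against 643 and 963 in the colonic lines, a log2 difference of 4.62 ± 0.41 (SE, limma adjusted p = 0.135), and its other probe sets had 2.07 and 1.50. Aldh1a1, another enzyme of that kind, had 549 and 10.8 against 1852 and 3723, with the bone marrow lines far apart. Aldh1a2, also of that kind, had 174 and 609 against 250 and 2.44. Its difference was -2.39 ± 1.44 (SE), and the tissues overlapped. Crabp1, which binds retinoic acid in the cytoplasm, had 427 and 4886 against 204 and 195. Cdx2, the caudal factor that drives posterior Hox genes in the embryo, lay between 1.00 and 15.0 on every array. The retinoid receptor gene Rara had a difference of 0.01 and the degrading enzyme gene Cyp26b1 one of -1.79 ± 0.82 (SE).

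**Figure D5:**
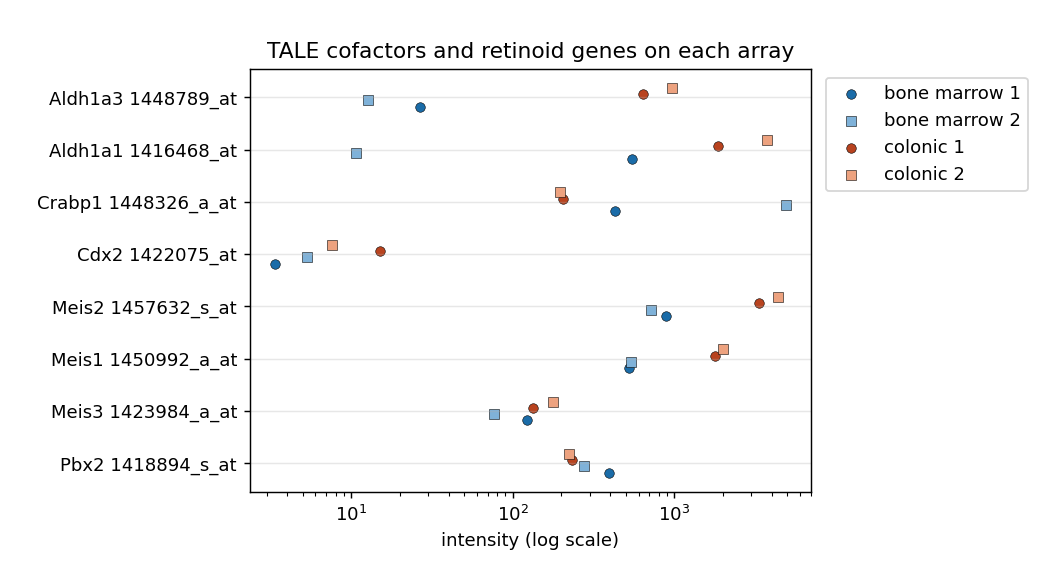
Points are intensities on a log scale of the 4 genes with the lowest p in each of the lists of TALE proteins and of caudal and retinoid genes, in blue for bone marrow and orange for colonic lines. Meis1, Meis2 and Aldh1a3 have both colonic points well to the right of both bone marrow points, and Crabp1 has bone marrow replicate 2 at 4886, far from the other lines.

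Among chromatin regulators of Hox genes, Polycomb proteins had 42 probe sets of 17 genes with a median of -0.11. Trithorax proteins and H3K27 demethylases had 18 probe sets of 8 genes with a median of -0.004. In both lists 0 passed limma, as on the whole array. At least 2-fold apart were 0, against 0.802% of all probe sets toward colon and 0.524% toward bone marrow, shares at which lists of this size can hold 0 without standing out. Of the Polycomb differences 26 lay below 0 and 16 above. Without overlap were 9 of the 42 toward bone marrow (15.8% of all probe sets) and 3 toward colon (16.9%). The genes with the lowest p were Cbx7 (-1.06), Ezh1 (-0.41), Bmi1 (-0.88) and Phc3 (-0.24) in the Polycomb list, as log2 differences. In the other list they were Men1 (-0.55), Kdm6b (0.45), Wdr5 (0.50) and Rbbp5 (-0.18). The Ezh1 and Phc3 probe sets lay in the low range on every array, and the brightest ones of these genes had -0.09 and -0.11. The other probe sets of Cbx7 had -0.03 and 0.03. Ezh2, the main H3K27 methyltransferase, had 3484 and 2908 in the marrow lines against 1393 and 4205 in the colonic lines.

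Median intensities of the arrays lay within 0.04 of each other on the log2 scale, and r between lines was 0.973 (bone marrow), 0.967 (colon) and 0.953 to 0.9705 (across tissues) over all probe sets. Of the MSC surface markers, Thy1 and Cd34 lay between 7.22 and 32.8 in bone marrow and between 2038 and 9032 in colon, and of the 10 genes measured 8, 7, 10 and 9 lay above the low range on the 4 arrays. The brightest probe sets of Itgb1, Cd44, Pdgfra and Pdgfrb were at 492 or more on every array. Vcam1 had 2206 and 2535 in bone marrow but 2281 and 266 in colon, Eng 1323 and 445 against 330 and 1035, and Nt5e 76.3 and 27.9 against 209 and 27.6. The summed level of 9 macrophage markers was 2870 and 1121 in the marrow lines against 1829 and 2917 in the colonic lines, with Ptprc in the low range and Cd14 between 573 and 963, that of 6 smooth muscle markers 36201 and 24442 against 45350 and 39161, that of 5 endothelial markers 104 and 58.6 against 159 and 144, and that of 5 enteric neuron and glia markers 1046 and 393 against 992 and 316. The macrophage gene Cd53 was, like Hoxb9 and Hoxd10, highest in colonic replicate 2, with 14.0 and 15.7 in the marrow lines against 155 and 1333 in the colonic lines. Of all 14 macrophage probe sets, 4 were higher in colonic replicate 2 than in replicate 1 and 10 were lower. The brighter probe set of the muscle gene Des was, like Hoxd13, highest in colonic replicate 1, at 2379 there and at most 52.4 elsewhere. Of all 10 smooth muscle probe sets, 8 were lower in colonic replicate 2 than in replicate 1 and 2 were higher. The part of such cells in the Hox values was not tested.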

How the data were processed

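Amplified, biotin-labelled RNA of 4 MSC lines was read on Affymetrix arrays, as the labels' protocols record. The authors deposited linear probe set intensities; how they summarised, background-corrected and scaled them is not given in the sources used here. All 64 array controls were left out. The deposited scaling was kept, and 13.6 (0.25 of the median value, 54.5) was added before log2. The contrast of the tissues was fitted in R 4.3.3 by limma 3.58.1 (lmFit, eBayes with intensity trend; 2 residual and 2.89 prior degrees of freedom) over all 45037 probe sets. No filter on low values was applied, so that no member entered because it differed. P-values are two-sided. SD is over both lines of a tissue. The script was first tested on simulated data. Probe sets with 1 symbol in the platform annotation (34945) were named, and 932 with several and 9160 with none were not.

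Every Hox probe set is described. Values in each line were due for probe sets at least 2-fold apart, for the others of those genes and for the brightest overlapping one per cluster, and for 4 genes of each other list by p. Further genes were named after their values were seen. Members and lists were chosen with earlier results of these data known. Alternatives were other normalizations, pseudocounts, filters and variance models, 1 probe set per gene, a replicate block, and each array left out in turn.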

Additional observations from a re-analysis of the deposited data

How the results depend on the processing

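Of the 48 Hox probe sets, 35 kept the sign of their difference in every other setting in which they were fitted (11 to 14 settings, since filters and 1 probe set per gene left some out), and 13, none differing by more than 0.45 on the log2 scale, did not. The 7 Hox probe sets at least 4-fold higher in colon were 5 with a pseudocount of the table median, 6 after filtering at the 60th percentile, 8 with a pseudocount of 1 and 7 to 10 without 1 array, and those at least 4-fold lower 0 to 5 without 1 array. With robust eBayes in limma 15 probe sets passed an adjusted p of 0.05, 1 of them a Hox probe set (Hoxb2, 0.0444), and 12 passed, 0 of them Hox, after filtering at the 60th percentile. Without 1 array 0 passed, a lone array being assumed as variable as the other tissue.

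The Hoxb median of 2.35 was 3.87 with a pseudocount of 1, 1.15 with that of the table median, 2.99 and 4.25 with filters at the 40th and 60th percentile, 3.64 with 1 probe set per gene and 2.13 to 2.57 without 1 array. The latter filter gave -0.32 for Hoxa, -2.46 for Hoxc and 2.93 for Hoxd, by leaving fewer probe sets, and 1 probe set per gene gave -2.25 for Hoxc. Without 1 array the medians ran from -0.24 to -0.15 for Hoxa, -1.87 to -0.48 for Hoxc and 1.08 to 2.59 for Hoxd.

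Signs turned without 1 array in Hoxa3 1431392_at (-0.14 to 0.19, and -0.0077 with quantile normalization), Hoxa3 1452421_at (-1.05 to 0.16), Hoxa9 1421579_at (-0.20 to 0.79), Hoxa9 1455626_at (-0.21 to 0.10), Hoxa10 1431475_a_at (-0.36 to 0.23), Hoxa10 1446408_at (-0.26 to 0.21), Hoxa11 (-0.11 to 0.38), Hoxa13 (-0.62 to 0.82), Hoxb7 (-0.45 to 0.26), Hoxc5 1456301_at (-0.16 to 0.12), Hoxc6 1427361_at (-0.29 to 0.28), Hoxc6 1427454_at (-0.084 to 0.20), Hoxd12 (-0.061 to 0.13) and Rbbp5 (-0.38 to 0.016).

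Arrays with the same replicate number deviated together with r = 0.13, and nothing in the labels pairs them. With the replicate block, 0 probe sets passed and the smallest adjusted p was 0.188.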
